A study of Mus musculus with 6 samples.

Results

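The genes described here are 9 members of the epidermal growth factor (EGF) family, 3 receptors (Egfr, Erbb2 and Erbb3) and 6 ligands (Nrg1, Tgfa, Hbegf, Ereg, Areg and Btc). They were chosen by gene symbol from a deposited expression table of 33682 rows, and each symbol matched 1 row. RNA sequencing had been done on neonatal rat heart cells in culture, grown in conditioned medium, the supernatant of a culture of other cells. In 3 samples that medium had been taken from ALOX5-/- BMMCs, mast cells grown from bone marrow, and is called Alox5KO medium below, and in 3 samples it had been taken from WT BMMCs and is called WT medium. Alox5 encodes 5-lipoxygenase, which starts leukotriene synthesis. The mast cells of both groups had been treated with TNF-a, and the genotype of the sequenced cells is WT in all 6 samples. Time in the medium and the strain of the donors are not given in the sources used here. The labels call the cells cardiomyocytes, while the design text names a cardiac fibroblast culture.

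EGF family ligands are made as membrane-anchored precursors that proteases of the ADAM family cut free, and the freed ligand makes receptors pair and phosphorylate each other. Tgfa, Areg, Ereg, Hbegf and Btc bind the EGF receptor, and neuregulin 1, the product of Nrg1, binds ERBB3 and ERBB4. ERBB2 has no known ligand of its own and serves as a partner, while ERBB3 has a weak kinase and signals through its partners. In the heart, neuregulin 1 is best known as a signal from endothelium to cardiomyocytes, and EGF receptor signalling drives fibroblast growth.

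Fibroblast transcripts dominated the libraries. The 12 fibroblast markers, led by the collagen gene Col1a1, summed to between 10826 and 12765 FPKM with Alox5KO medium. With WT medium they summed to between 11678 and 12150 FPKM. Of the 12, 3 rose and 4 fell, where 10.0% of all tested genes rose and 10.6% fell. The 3 were Col3a1, Tcf21 and Vim, and the 4 were Pdgfra, Dcn, Lum and Fn1. Dcn had the largest log2 difference, at 134 FPKM with Alox5KO medium and 2219 FPKM with WT medium. The similar sums thus cover changes in both directions. The 12 cardiomyocyte markers summed to 104 to 129 FPKM with Alox5KO medium and 32.1 to 56.7 FPKM with WT medium. Of these, Myl2, the ventricular myosin light chain, was listed at 0 in all 6 libraries, Tnnt2 was the most abundant, and 4 of the 7 tested rose. Of the 4, Myh7 (1.86 FPKM with Alox5KO medium and 0.744 FPKM with WT medium) and Pln (2.63 FPKM with Alox5KO medium and 0.596 FPKM with WT medium) passed the filter of a mean of 1 FPKM through Alox5KO medium, so their place in that count is partly fixed by the filter. FPKM is the number of fragments per kilobase of gene, scaled to the size of the library. Of the smooth muscle and pericyte markers, 7 of 8 tested rose. The list's sum was 4995 to 6846 FPKM with Alox5KO medium and 1085 to 1190 FPKM with WT medium. Most of it came from Tagln, the most abundant, and Acta2. Des had a lower mean with Alox5KO medium, at 14.4 FPKM against 24.1 FPKM with WT medium, and was not called. Rgs5 was barely detected, with 2 reads with Alox5KO medium and 3 with WT medium. Of the mesothelial and epicardial markers, 3 of 6 tested were lower. The list's sum was 33.0 to 41.0 FPKM with Alox5KO medium against 103 to 138 FPKM with WT medium. Aldh1a2, the most abundant, made up most of that difference, at 7.62 FPKM with Alox5KO medium and 79.2 FPKM with WT medium. Wt1, at 17.2 and 18.2 FPKM, was not called. Upk1b and Krt8, below the filter, were higher in every Alox5KO-medium sample than in any WT-medium sample. Of the 3 lower genes, Krt18 passed the filter through WT medium, at 0.0932 FPKM with Alox5KO medium and 2.48 FPKM with WT medium. The part of these cell types in the results below was not tested, and in bulk samples fewer cells of a type and less RNA per cell cannot be told apart. The first principal component, with 65.0% of the variance, set the groups apart. On it the scores nearest to the other group were those of Alox5KO-medium replicate 2, at -27.7, and WT-medium replicate 3, at 26.5.

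With Alox5KO medium the ligand genes Nrg1, Tgfa and Hbegf rose, while Ereg, which did not pass the test, and Areg, which was below the filter for testing, had lower means, and neither Egfr nor Erbb2 was called. Nrg1 had the largest difference, at 5.48 times the mean FPKM of WT medium, followed by Tgfa at 2.66 times and Hbegf at 1.40 times. Of the 9 members, 6 averaged 1 FPKM or more over the 6 samples and were tested, and 3 of the 6 were called higher and 0 lower (limma, p adjusted by the Benjamini-Hochberg method, BH, over 12341 genes, threshold 0.05). Among all tested genes 10.0% were called higher and 10.6% lower. With 1 sample left out 2 or 3 members were called higher, the one lost being Hbegf, and Ereg was called lower without WT-medium replicate 3. With all samples 0 of the 6 tested members were lower at an unadjusted p under 0.05, and limma-voom on recovered reads called 0 lower. Areg, not among the 6, was lower at an unadjusted p of 0.0095 with a filter of 0.5 FPKM and 0.013 without a filter (both limma). The same 3 of the 6 tested members had groups that did not overlap, a pattern seen in 37.6% of all tested genes. The median log2 fold change was 0.28 over the 6 tested members and -0.00082 over all tested genes. The labels do not say that replicates came from separate cultures, so the p-values cover the spread among the samples at hand, and that spread may be technical.

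**Figure D1:**
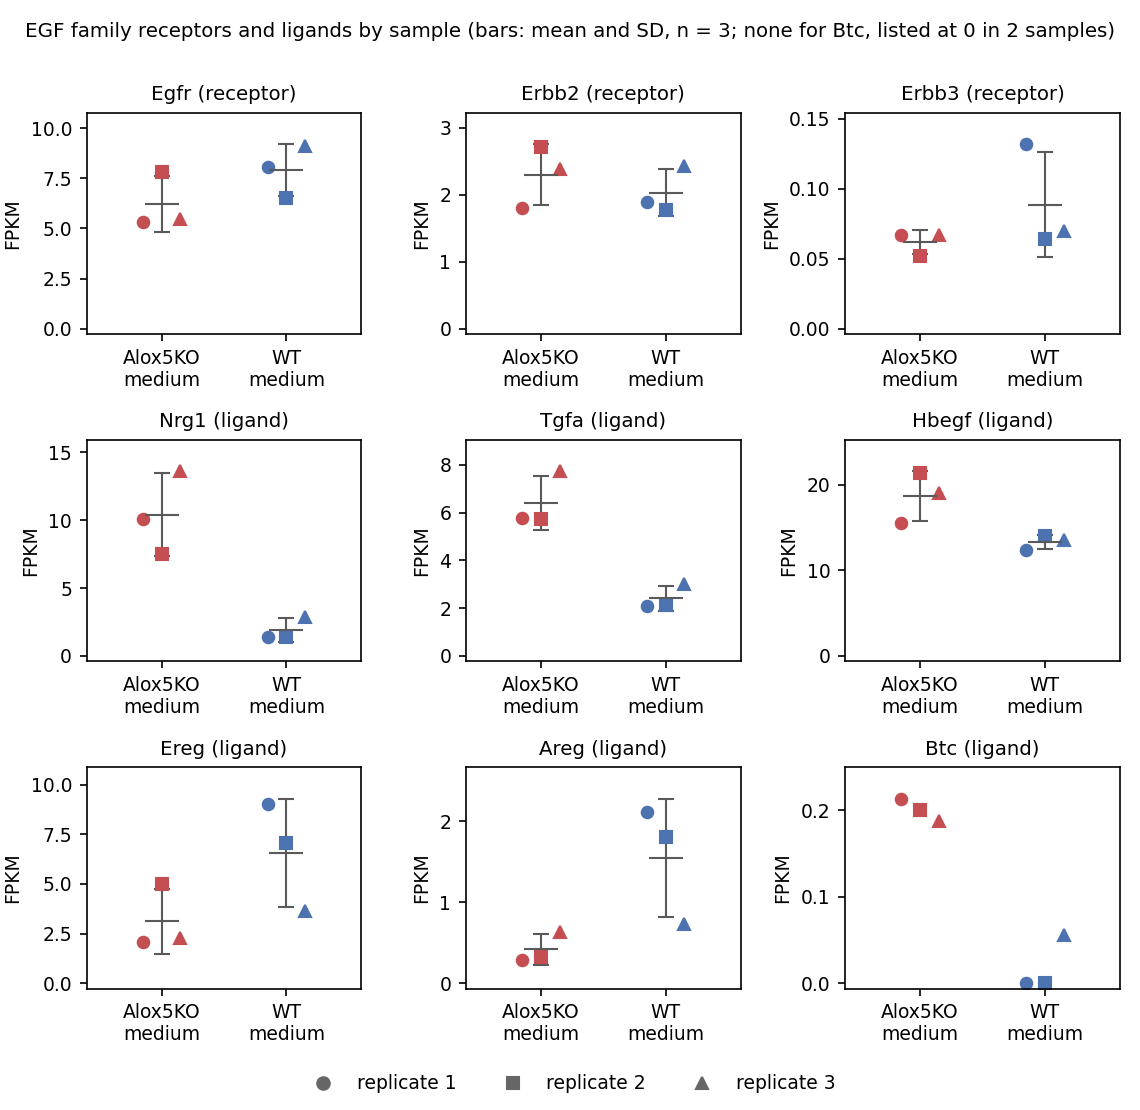
FPKM of each member in every sample, with Alox5KO medium in red on the left and WT medium in blue on the right of each panel; marker shapes give the replicate number, and horizontal lines and bars give the mean and SD (n = 3), left out for Btc. Nrg1, Tgfa and Hbegf are higher in all 3 Alox5KO-medium samples than in any WT-medium sample, Areg is lower, and the groups overlap for Egfr, Erbb2, Erbb3 and Ereg.

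Egfr, the receptor for most ligands of the family, was the most abundant of the 3 receptor genes. It had 5.34, 7.81 and 5.45 FPKM with Alox5KO medium, against 8.07, 6.53 and 9.12 FPKM with WT medium. Alox5KO-medium replicate 2 lay inside the range of the WT-medium samples, so the groups overlapped. The log2 fold change was -0.31 with a 95% interval from -0.69 to 0.06 (limma, BH-adjusted p = 0.24), and Egfr passed the threshold in 0 of 18 alternative analyses. The gene (ENSRNOG00000004332) lies on chromosome 14 from 99919485 to 100098796, in the coordinates of the table. Over the 6 samples the 3 tested genes whose pattern lay nearest to that of Egfr, by Euclidean distance of mean-centred log2(FPKM + 1), were Nr2c2, Emsy and Pmel, at distances of 0.12, 0.15 and 0.15.

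Erbb2, the partner receptor without a ligand, had 1.81, 2.71 and 2.38 FPKM with Alox5KO medium, against 1.89, 1.76 and 2.42 FPKM with WT medium. The groups overlapped over most of their range. Its log2 fold change was 0.12 with a 95% interval from -0.25 to 0.50 (limma, BH-adjusted p = 0.67). On the log2(FPKM + 1) scale the interval therefore holds differences in both directions. The gene (ENSRNOG00000006450) lies on chromosome 10 from 86367596 to 86391728 and overlaps a small RNA row on the other strand that was listed at 0.

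Erbb3, a receptor for neuregulin 1, was barely detected. It had 6, 5 and 6 reads with Alox5KO medium, against 11, 5 and 6 reads with WT medium, which is 0.0618 ± 0.00850 and 0.0886 ± 0.0375 FPKM (SD, n = 3 each). The ratio of the summed reads, scaled to library size, was 0.692 with an exact 95% counting interval from 0.345 to 1.37, so a change of either sign within that interval was not detectable at this depth. Erbb3 is abundant in Schwann cells. Of 8 Schwann cell markers in the table, Cdh19 was listed at 0 in all libraries, Sox10 averaged 0.0145 FPKM with Alox5KO medium and 0.00782 FPKM with WT medium, and Pmp22, which fibroblasts also express, made up most of the list's sum of 141 to 144 FPKM with Alox5KO medium and 322 to 409 FPKM with WT medium.

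The last receptor of the family, Erbb4, the other receptor for neuregulin 1, is not among the 9 members. It had 0.139, 0.114 and 0.209 FPKM with Alox5KO medium, against 0.0187, 0 and 0 FPKM with WT medium. All 3 Alox5KO-medium values were above the WT-medium values, from 27 reads in all against 1 read. The read ratio was 24.2 with an exact 95% counting interval from 3.99 to 990, which covers counting error only. Without a filter on low values Erbb4 passed the test (log2 fold change 0.20, limma, BH-adjusted p = 0.036), although it stayed below the lowest level of any tested member in every sample and, like Btc below, had to be high in a group to be seen at all. A listed 0 does not show absence, since the ribosomal protein gene Rpl8 (chosen after seeing its values) had a listed 0 in 4 of the libraries.

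Among the ligands, Nrg1 moved furthest. It had 10.1, 7.53 and 13.6 FPKM with Alox5KO medium, against 1.41, 1.38 and 2.90 FPKM with WT medium. The lowest Alox5KO-medium sample, replicate 2, was above the highest WT-medium sample, replicate 3. These values rest on 808, 646 and 1089 reads with Alox5KO medium, against 105, 96 and 222 reads with WT medium. The log2 fold change was 1.98 ± 0.25 (standard error, limma, BH-adjusted p = 0.0012), and 1.63% of tested genes had an absolute log2 fold change at least as large. It was called in all 18 alternatives, at 1.79 to 2.52.

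Nrg1 (ENSRNOG00000010392) lies on chromosome 16 from 63837216 to 64057434. Neuregulin 1 is made as many isoforms, and the table gives 1 value per gene, so isoforms were not told apart. Endothelial cells are its best known source in the heart. Of 7 endothelial markers in the table, Emcn and Cldn5 were listed at 0 in all libraries, Cdh5 and Kdr were below 1 FPKM in each, and Tek alone was tested, at 3.14 ± 0.388 FPKM with Alox5KO medium and 5.17 ± 1.11 FPKM with WT medium (SD, n = 3 each), where it fell by 0.56 on the log2 scale (limma, BH-adjusted p = 0.034). The summed level of these markers was 2.74 to 3.67 FPKM with Alox5KO medium and 4.44 to 6.54 FPKM with WT medium. Tek made up most of that sum, and every other marker of the list was below 1 FPKM in each sample.

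Tgfa, which encodes transforming growth factor alpha, a ligand of the EGF receptor, rose as well. It had 5.77, 5.73 and 7.73 FPKM with Alox5KO medium, against 2.08, 2.14 and 3.00 FPKM with WT medium. Each Alox5KO-medium sample was above each WT-medium sample. The log2 fold change was 1.12 ± 0.16 (standard error, limma, BH-adjusted p = 0.0013), from 1339 reads with Alox5KO medium and 454 with WT medium. It was called in all 17 alternatives that could test it, at 1.00 to 1.44, and 5.71% of tested genes had an absolute log2 fold change at least as large. The gene (ENSRNOG00000016182) lies on chromosome 4 from 117962319 to 118046344.

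Hbegf, the heparin-binding ligand of the EGF receptor and of ERBB4, was the most abundant member in both groups. It had 15.5, 21.3 and 19.0 FPKM with Alox5KO medium, against 12.4, 14.0 and 13.5 FPKM with WT medium. The groups did not overlap, with Alox5KO-medium replicate 1 at 15.5 FPKM closest to the WT-medium samples. The log2 fold change was 0.45 ± 0.13 (standard error, limma, BH-adjusted p = 0.036). This call was lost without Alox5KO-medium replicate 2 or 3 and without WT-medium replicate 1, 2 or 3, at adjusted p of 0.10, 0.10, 0.14, 0.067 and 0.063 (limma with BH), and held without Alox5KO-medium replicate 1, at 0.013. It was also lost without the filter on low values, at an adjusted p of 0.073, and without the trend and robust prior, at 0.056 (both limma with BH). Over the 18 alternatives the log2 fold change stayed between 0.35 and 0.56.

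Hbegf (ENSRNOG00000018646) lies on chromosome 18 from 29329764 to 29340403. The tested genes nearest to its pattern over the 6 samples were Plekhb1, Cpne2 and the unnamed gene AABR07028615.1, at Euclidean distances of 0.14, 0.16 and 0.17 on the log2 scale. Cpne2 had 9.39 ± 1.26 FPKM with Alox5KO medium and 6.76 ± 0.496 FPKM with WT medium (SD, n = 3 each).

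**Figure D2:**
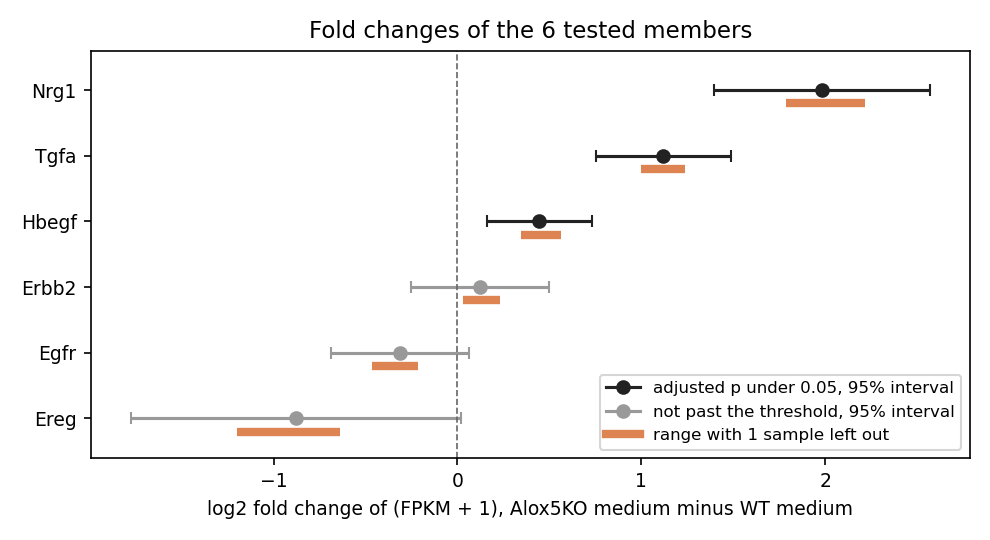
Log2 fold change of (FPKM + 1), Alox5KO medium minus WT medium, of the 6 tested members with 95% intervals from limma (black where the adjusted p was under 0.05, grey where not); orange bars give the range with 1 sample left out. Nrg1, at 1.98, and Tgfa, at 1.12, lie well to the right of 0, Hbegf lies at 0.45, and the intervals of Erbb2, Egfr and Ereg include 0.

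Ereg, Areg and Btc, ligands of the EGF receptor, are neighbours on chromosome 14. With Epgn, which encodes epigen, they span 402 kilobases from 18231860 to 18634309 and are the only 4 rows of the table that lie within that span, with Areg ending 45.2 kilobases before Ereg starts. Their values differed in direction: Ereg and Areg had lower means with Alox5KO medium, Btc had more reads with Alox5KO medium, and Epgn was listed at 0 in all 6 samples.

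Ereg, which encodes epiregulin, had 2.07, 5.00 and 2.27 FPKM with Alox5KO medium, against 9.01, 7.07 and 3.63 FPKM with WT medium. Alox5KO-medium replicate 2 was above WT-medium replicate 3, so the groups overlapped. The log2 fold change was -0.88 ± 0.37 (standard error, limma, BH-adjusted p = 0.16), from 308 reads with Alox5KO medium and 571 with WT medium. Without WT-medium replicate 3 it was -1.20 with an adjusted p of 0.039, and over 17 alternatives the adjusted p ran from 0.039 to 0.37 (limma with BH).

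Areg, which encodes amphiregulin, had 0.289, 0.325 and 0.637 FPKM with Alox5KO medium, against 2.12, 1.8 and 0.728 FPKM with WT medium. The groups did not overlap, though Alox5KO-medium replicate 3 and WT-medium replicate 3 lay close together. With 5, 6 and 11 reads with Alox5KO medium, against 34, 27 and 12 reads with WT medium, its mean over all samples was 0.983 FPKM, just under the filter of 1 FPKM, so it was not tested in the main analysis. Where the filter was 0.5 FPKM, a choice made after its values were seen, the log2 fold change was -0.81 with an adjusted p of 0.049, and without a filter the adjusted p was 0.085 (limma with BH). On the recovered reads the log2 fold change was -1.74 ± 0.57 (standard error), with an adjusted p of 0.061 (limma-voom with BH, filter of 0.5 FPKM).

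Btc, which encodes betacellulin, was near the limit of detection. It had 8, 8 and 7 reads with Alox5KO medium, against 0, 0 and 2 reads with WT medium, or 0.214, 0.200 and 0.187 FPKM against 0, 0 and 0.0561 FPKM. Each Alox5KO-medium library had more reads than any WT-medium library. The read ratio was 10.3 with an exact 95% counting interval from 2.55 to 90.2. Without the filter on low values Btc passed the test, with a log2 difference of 0.24 (limma, BH-adjusted p = 0.017), and a gene as low as this had to be high in a group to be seen at all.

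Summed over the 6 ligand genes, per gene length, the level was 33.9, 40.1 and 43.4 FPKM with Alox5KO medium, against 27.0, 26.4 and 23.8 FPKM with WT medium. Hbegf made up 47.6% ± 4.93 of the sum with Alox5KO medium and 51.9% ± 5.52 with WT medium (SD, n = 3 each). Nrg1 made up 26.6% ± 6.79 with Alox5KO medium and 7.54% ± 4.02 with WT medium. Ereg made up 7.93% ± 3.95 with Alox5KO medium and 25.1% ± 9.17 with WT medium. The level of Nrg1 was 4.85, 1.51 and 6.00 times that of Ereg with Alox5KO medium, against 0.156, 0.195 and 0.800 times with WT medium. Ereg was thus the more abundant of the pair in every WT-medium sample and Nrg1 in every Alox5KO-medium sample. These sums and shares describe the samples and were not tested.

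**Figure D3:**
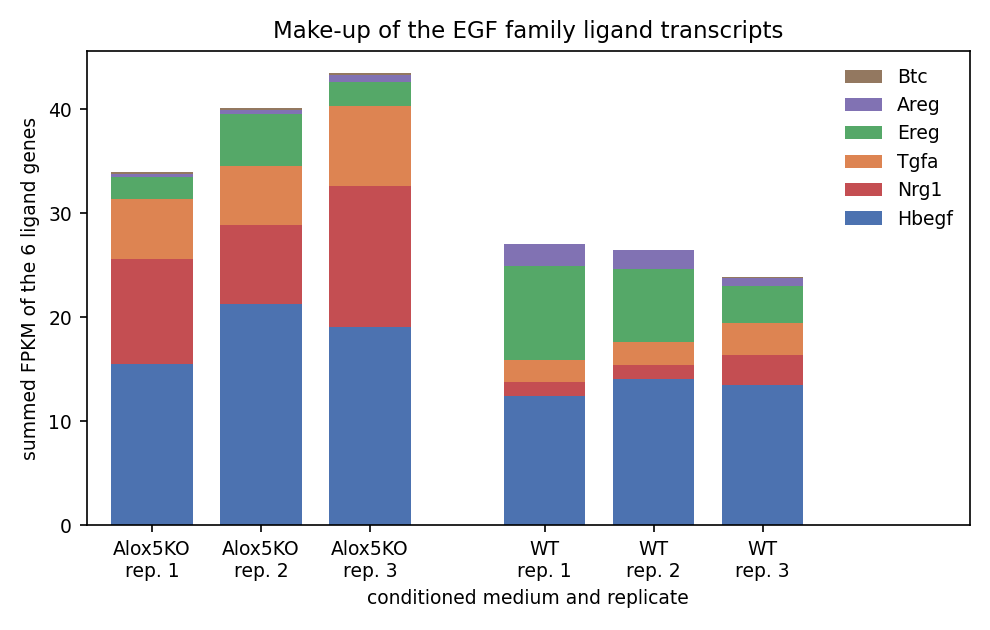
Stacked bars of the FPKM of the 6 ligand genes in each sample, Alox5KO medium on the left and WT medium on the right. The sums are 33.9 to 43.4 FPKM with Alox5KO medium and 23.8 to 27.0 FPKM with WT medium, and the Nrg1 and Tgfa segments are taller and the Areg segment shorter in every Alox5KO-medium sample than in any WT-medium sample, while the Ereg segments of the groups overlap.

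Ordered by mean FPKM, the members ran Hbegf, Nrg1, Tgfa, Egfr, Ereg, Erbb2, Areg, Btc and Erbb3 with Alox5KO medium, and Hbegf, Egfr, Ereg, Tgfa, Erbb2, Nrg1, Areg, Erbb3 and Btc with WT medium. With Alox5KO medium the ranges of neighbours overlapped for Nrg1 and Tgfa, Tgfa and Egfr, and Ereg and Erbb2. With WT medium they overlapped for Egfr and Ereg, Tgfa and Erbb2, Erbb2 and Nrg1, and Nrg1 and Areg. For Nrg1, Tgfa and Ereg the samples closest to the other group were the same replicates. For Hbegf they were Alox5KO-medium replicate 1 and WT-medium replicate 2 instead, and for Areg the closest Alox5KO-medium sample was replicate 3. For Tgfa Alox5KO-medium replicate 2, at 5.73 FPKM, was barely below replicate 1, at 5.77 FPKM. WT-medium replicate 3 had the highest Nrg1 and Tgfa and the lowest Ereg and Areg of its group, and Alox5KO-medium replicate 2 had the lowest Nrg1 and Tgfa and the highest Ereg of its group. The same replicates had the principal component scores nearest to the other group. Without WT-medium replicate 3 the log2 fold changes were 2.22 for Nrg1 and 1.24 for Tgfa, and without Alox5KO-medium replicate 2 they were 2.17 and 1.18. Larger fold changes without the samples nearest to the other group follow from the choice of samples. For Tgfa the value without Alox5KO-medium replicate 1 was also 1.18.

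Around the members, 6 lists of pathway genes were read from the same fit, of which the first held the remaining receptor and ligands of the family. In that list Erbb4, Egf, Epgn, Nrg2 and Nrg4 were in the table and 0 passed the filter, since each was below 1 FPKM in every sample. Egf, which encodes epidermal growth factor itself, had 1 read with Alox5KO medium and 16 with WT medium, a ratio of 0.0560 with an exact 95% counting interval from 0.00134 to 0.360. That interval covers counting error only, and Egf was not called without a filter on low values (limma with BH). Like Erbb4 and Btc, it had to be high in a group to be seen at all.

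Of 11 tested genes that act in ligand shedding, 2 rose and 4 fell, and the median was -0.24 on the log2 scale. The background over all tested genes was 20.7% called in either direction. Timp3, an inhibitor of ADAM17, had 11.5, 19.3 and 13.5 FPKM with Alox5KO medium, against 1.99, 2.22 and 1.74 FPKM with WT medium, and rose by 2.38 on the log2 scale (limma, BH-adjusted p = 3.0e-05). Of the protease genes, Adam19 rose by 1.06, and Adam9 fell by 0.99 and Adam10 (chosen after seeing its values) by 0.47. Rhbdf2, an iRhom that carries ADAM17 to the cell surface, fell by 0.58. Adam17 (chosen after seeing its values), the main sheddase of Tgfa, Areg and Hbegf, had 35.8 ± 1.97 FPKM with Alox5KO medium and 42.5 ± 2.70 FPKM with WT medium (SD, n = 3 each), a difference of -0.24 on the log2 scale that missed the threshold (limma, BH-adjusted p = 0.11).

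Of 28 tested transducers downstream of the receptors 1 rose and 2 fell, where 10.0% of all tested genes were called higher and 10.6% lower, and the median was 0.07 on the log2 scale. Eps15, an endocytic adaptor of the EGF receptor, had 61.0 ± 3.46 FPKM with Alox5KO medium and 36.1 ± 4.67 FPKM with WT medium (SD, n = 3 each) and rose by 0.75. Map2k1, the kinase MEK1, fell by 0.41, and Pik3cb, a catalytic subunit of phosphoinositide 3-kinase, fell by 0.54. Pik3cb averaged 0.921 FPKM with Alox5KO medium and 1.81 FPKM with WT medium, and so passed the filter through WT medium. Its call was lost with any 1 sample left out, at adjusted p from 0.076 to 0.16 (limma with BH).

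Of 12 tested inhibitors that act at the receptors 2 were higher and 2 lower, with a median of 0.13, where 10.0% of all tested genes were called higher and 10.6% lower. Ptpn1, a phosphatase that dephosphorylates the EGF receptor, had 20.3, 22.8 and 21.9 FPKM with Alox5KO medium, against 53.0, 50.6 and 51.4 FPKM with WT medium, and fell by 1.22 on the log2 scale (limma, BH-adjusted p = 2.6e-05). The other calls were that the ubiquitin ligase gene Cblb fell by 0.43, the ubiquitin ligase gene Rnf41, whose product degrades ERBB3, rose by 0.37, and the transmembrane inhibitor gene Lrig1 rose by 0.58. With 1 sample left out Cblb passed only without WT-medium replicate 1, Rnf41 only without Alox5KO-medium replicate 2 or WT-medium replicate 3, and Lrig1 only without Alox5KO-medium replicate 1, with adjusted p of up to 0.13, 0.15 and 0.14 (limma with BH). With 1 sample left out the list held 1 or 2 calls: 1 without Alox5KO-medium replicate 3 or without WT-medium replicate 2, and 2 without any of the other samples. Errfi1 (chosen after seeing its values), the inducible inhibitor of the EGF receptor kinase, had 43.2 ± 5.98 FPKM with Alox5KO medium and 47.9 ± 3.09 FPKM with WT medium (SD, n = 3 each) and did not pass.

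Genes that answer ERK, the kinase that EGF receptors activate, divided. Of 11 tested ERK feedback genes 4 rose and 5 fell, with a median of -0.26, which is 9 called of 11 against 20.7% over all tested genes. Spry1, an inhibitor of receptor kinase signalling, had 15.5, 22.0 and 20.6 FPKM with Alox5KO medium, against 3.17, 2.78 and 2.67 FPKM with WT medium. It rose by 2.39 on the log2 scale (limma, BH-adjusted p = 8.1e-06). The phosphatase gene Dusp4 rose by 2.02 and Phlda1 by 1.13, while Ier3 fell by 1.10. Of the other calls, Spry4 rose by 0.71, while Spry2 fell by 0.82, Dusp6 by 0.53, Spred3 by 0.46 and Dusp7 by 0.34.

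Of 14 tested transcription factor genes that EGF induces in many cells, 5 rose and 3 fell, with a median of 0.23. That is 8 called of 14, against 20.7% over all tested genes (10.0% higher and 10.6% lower). Fos had 10.2, 8.62 and 11.7 FPKM with Alox5KO medium, against 1.74, 1.15 and 1.61 FPKM with WT medium, and rose by 2.16 on the log2 scale (limma, BH-adjusted p = 2.2e-05). Egr1 rose by 2.04, whereas Maff fell by 1.55 and Atf3 by 1.01. All of these lists were chosen with earlier results of these data known, and other signals than the EGF family induce the same genes.

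**Figure D4:**
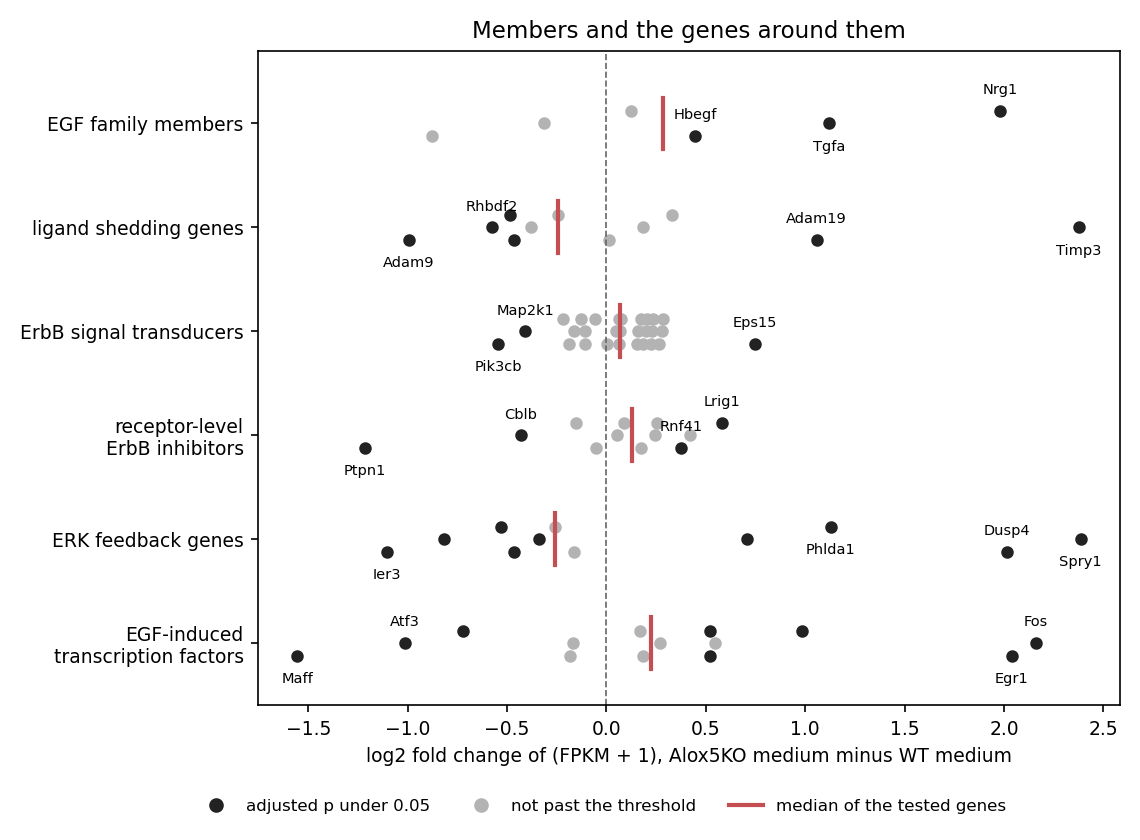
Log2 fold change of (FPKM + 1), Alox5KO medium minus WT medium, of every tested gene in the members' list and 5 pathway lists; black points had an adjusted p under 0.05, grey points did not, and red lines are the medians of the lists. The transducers lie close to 0, with a median of 0.07, while the ERK feedback genes reach from -1.10 for Ier3 to 2.39 for Spry1.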

How the data were processed

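The authors deposited FPKM values, 1 column per sample, with gene length, biotype and position, per the file headers. Per the submitters' processing notes, which give no roles, the tools were HISAT2 2.0.5, DESeq2 1.20.0, featureCounts 1.5.0-p3, CASAVA 1.8 and fastp, with the build mm10. The labels name mouse as the organism, yet 32883 of 33682 rows carry rat Ensembl identifiers, so no mouse reference was used, and protein and promoter sequences were not analysed here. The rat build and the use of strand in counting are not given in the sources used here.

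FPKM times gene length was a whole multiple of 1 step per column (100% of values above 0, within 0.05 reads), which gave 14955850, 15766187 and 15113189 reads in the Alox5KO-medium libraries and 14171423, 13284088 and 14389010 in the WT-medium libraries. The library size by which the deposited values were scaled was 0.990 to 1.03 times these totals. Median-ratio factors of the deposited values, used in an alternative scaling, ran from 0.998 to 1.006. That alternative therefore nearly repeats the main analysis. At a length of 1 kilobase, 3 reads came to 0.185 to 0.228 FPKM. Intervals and limits from reads cover counting error only. Replicates differed beyond sampling noise, with a chi-square of at least 6.39 per degree of freedom.

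Genes averaging 1 FPKM or more were tested as log2(FPKM + 1), which understates changes of low genes, with limma 3.58.1 in R 4.3.3 (mean-variance trend, robust prior, two-sided, no replicate block, Benjamini-Hochberg at 0.05 over 12341 genes). The fit was tested on simulated reads that were independent between samples, with the same relative spread beyond counting error for every gene. That test therefore does not show how the fit behaves on replicates as uneven as these. Positive fold changes mean higher with Alox5KO medium. Alternatives were other pseudocounts (0.1 and 0.5), filters and scalings, limma without trend or robust prior, limma-voom on recovered reads, a replicate block, each sample left out, and 2 added after the data were seen (a filter of 0.5 FPKM, alone and with limma-voom).

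Members, lists and markers were chosen with earlier results of these data known. Named genes are all members, up to 4 called genes per pathway list with the smallest p, the 3 genes nearest in pattern to the most abundant ligand and receptor, and the most abundant gene of marker lists. Marker genes named beyond these, and ERK feedback genes beyond the 4, were chosen after seeing their values. The remaining marker lists were epithelial (8 genes, all below 1 FPKM, most abundant Epcam), mast cell and leukocyte. Of 9 mast cell genes, 1 of 2 tested was lower (Cpa3, 19.6 FPKM with Alox5KO medium and 45.4 FPKM with WT medium). Of 10 leukocyte genes, 1 of 3 tested was lower (Cd14, 15.5 FPKM with Alox5KO medium and 20.8 FPKM with WT medium). Lower calls made up 10.6% of all tested genes.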

Additional observations from a re-analysis of the deposited data

How the results depend on the processing

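Nrg1 and Tgfa were called higher in every alternative that could test them, and neither the 6 tested members nor the called pathway genes tried under the alternatives changed direction. The count of members called higher was 2 or 3 in all alternatives. Without a filter on low values it was 3 with Btc in place of Hbegf. Members called lower numbered 0 except for 1 with a filter of 0.5 FPKM (Areg) and 1 without WT-medium replicate 3 (Ereg), so the range with 1 sample left out was 0 to 1. All genes called higher numbered 791 to 1226 and lower 862 to 1325 with 1 sample left out, both lowest without WT-medium replicate 1. Receptor-level inhibitors called numbered 1 without the filter, 2 with TPM scaling, 2 without the trend and robust prior, and 1 to 2 with 1 sample left out, against 4. Of the family's remaining receptor and ligands 1 was called without the filter, against 0. The cause was not tested.

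Same-numbered samples of the groups had deviations that correlated at -0.096, 0.105 and 0.167, and differently numbered samples at -0.192 to 0.101. The labels do not say what the replicate number pairs, so the numbers were not taken as pairs. With a replicate block 1277 genes were called higher and 1375 lower, with 3 members higher and 0 lower. Depth limits Erbb3, Btc and Areg, which had 39, 25 and 95 reads in all.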
